A study of Mus musculus with 12 samples.

Results

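Gene expression in an osteocyte line and an osteoblast line was compared in the groups labelled low, which per the labels are sparse osteoblasts and, for the osteocytes, one of the 2 states that differ in gap junctions. The osteoblast line, 2T3, came from a transgenic mouse in which the BMP-2 promoter drives the SV-40 T antigen. The osteocyte line, MLO-Y4, came from another transgenic mouse, with T antigen behind the osteocalcin promoter, so both lines carry an immortalizing oncogene. No treatment was named for either line. The comparison used 6 of the 12 one-colour spotted arrays of the series, 3 titled "2T3 OB low" and 3 titled "MLO-Y4 OC low", chosen by title alone, and all 5030 spots of each array. The other 6 arrays, 3 of 2T3 called C0 and 3 of MLO-Y4 called high, are here called the denser groups. The labels do not say which MLO-Y4 group has gap junctions, so its density is read from the titles. These 6 arrays were used to estimate the spread and for 1 comparison at the end. Each cell type was represented by 1 line only, so cell type, line and source animal cannot be told apart in any value below.

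Osteoblasts are the cells that lay down bone matrix. Some of them become buried in it and turn into osteocytes, which extend long processes, connect to each other through gap junctions and signal to osteoblasts and osteoclasts with secreted factors such as Wnt inhibitors, prostaglandins and cytokines. The step involves loss of matrix synthesis and a rebuilding of the actin cytoskeleton.

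Values are given as normalized intensity: the deposited intensities were brought to 1 common distribution over the 12 arrays, and readings below 6.08 units, the 25th percentile, were set to that floor. Values at the floor have no order. The lowest reading of each array was negative, and its size served as that array's detection limit. Between 38.1% and 74.8% of spots lay above it on the 6 arrays. Replicate 1 of MLO-Y4 low had the fewest spots above the limit and replicate 1 of 2T3 low the most. Replicate 3 of 2T3 low was the dimmest array, with a total intensity of 212491 against up to 1515440 on the others. The 2T3 low replicate 1 array correlated with the other arrays of its group at a Spearman rho of 0.715 and 0.716 over all spots, while replicate 2 of that group correlated with MLO-Y4 low replicate 2 at 0.785. MLO-Y4 low replicate 1 likewise stood apart from the other arrays of its group, at 0.725 and 0.683 against 0.842 between those. Where leaving out 1 of the 12 arrays ended the call of a gene described here, this is said beside the gene. An exact fold depends on the floor where only some arrays of the dimmer line were above their limit. That was 1 of the 3 for Six2, Scd2, Nid2, Gas2, Mef2a, Sod3 and Thbs2 and 2 of the 3 for Mag, Zfp57, Dkk2, Acvr1, Inhba, Adam19, Evl, Nasp, Gstt1, Il6 and Txnrd2, and for further genes it is said where they are described.

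The lines differed at 198 of 5030 spots (3.94%) by limma at an adjusted p under 0.05, with 144 spots (2.86%) higher and 54 (1.07%) lower in MLO-Y4. The differences were large. The smallest called difference was 1.07 on the log2 scale, the median size was 3.04, and 82 spots differed over 10-fold, 67 of them higher in MLO-Y4. At 51 called spots the dimmer line was below the detection limit on all 3 arrays, so only a lower bound of the fold can be given. The called difference had the same sign between the arrays of each replicate number at all 198 spots. The spots were selected for that difference and the numbers are not a pairing, so the equal sign adds no support. Independent of any test, the 3 arrays of each line did not overlap at 950 spots (18.9%), 523 higher (10.4%) and 427 lower (8.49%).

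The balance of higher and lower calls moved with the scaling. Higher spots made up 72.7% of the calls, against 86.2% when the arrays were set to equal medians (162 higher, 26 lower) and 56.2% when scaled on the spots detected on all 12 arrays (113 higher, 88 lower). The median difference of the 1462 spots above the limit on all 6 arrays was 0.12 under the quantile normalization used here, 0.86 with equal medians and -0.09 with detected-spot scaling, on the log2 scale. In all, 135 spots (2.68%), 109 higher (2.17%) and 26 lower (0.517%), were called in the same direction under all 3 scalings. Unless stated otherwise, each gene called higher or lower below is one of these. Counts of calls in gene lists are of the main fit, where 132 of 4605 genes (2.87%) were higher and 49 (1.06%) lower. The count of calls also leaned on single arrays: it was 115 without 2T3 low replicate 3, 125 without MLO-Y4 low replicate 1 and 130 without MLO-Y4 low replicate 2.

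**Figure D1:**
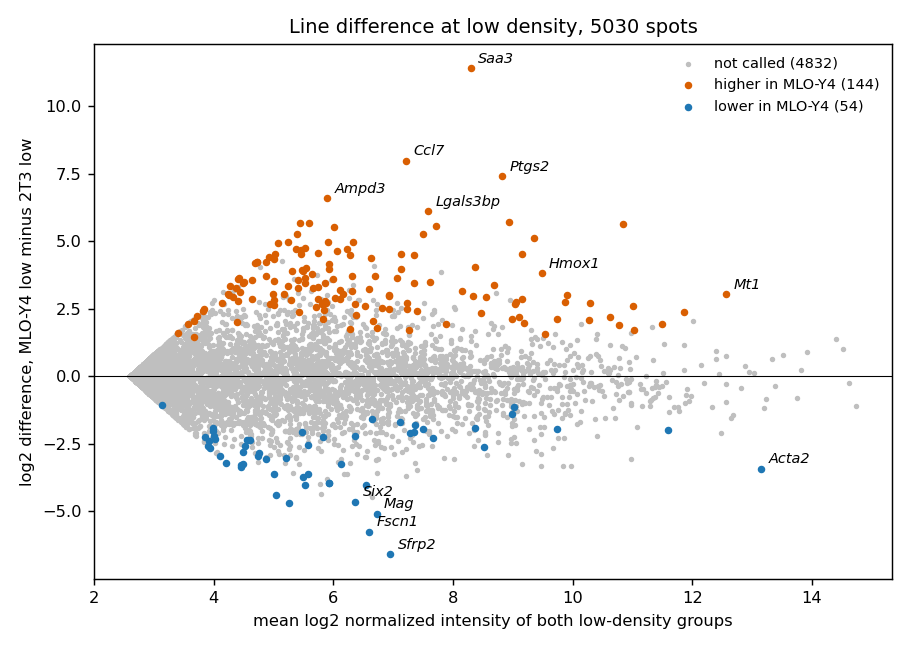
Each point is 1 of 5030 spots, with the mean log2 normalized intensity of the low-density groups on the horizontal axis and the log2 difference, MLO-Y4 low minus 2T3 low, on the vertical axis. The 144 spots higher in MLO-Y4 reach 11.39 (Saa3) and the 54 lower ones reach -6.59 (Sfrp2); the sloping left edge is set by the floor.

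The spot with the largest difference was Saa3, which encodes serum amyloid A3, a secreted acute-phase protein. It read at the floor of 6.1 units on all 3 arrays of 2T3 low and 11905, 17789 and 20655 units in MLO-Y4 low. The deposited intensities behind these were 20, -5 and -2 in 2T3 and 15534, 11310 and 18845 in MLO-Y4. All MLO-Y4 arrays thus lay among their brightest readings while no 2T3 array was above its limit. The difference in Saa3 was at least 1492-fold (adjusted p = 1.77e-05). Hp, which encodes the haemoglobin-binding acute-phase protein haptoglobin, read 6.1, 6.1 and 8.2 units in 2T3 low and 743, 306 and 179.8 units in MLO-Y4 low, at least 31.4-fold higher (adjusted p = 0.000264) or at least 20.1-fold without MLO-Y4 low replicate 1, its brightest array. Lgals3bp, a secreted glycoprotein that binds galectins, was measured above the floor in both lines, at 37.4, 13.2 and 25.1 units against 1690, 2042 and 1194 units. The groups did not overlap, and MLO-Y4 exceeded 2T3 by 69.3-fold (log2 6.11 ± 0.46 SE, n = 3 arrays each, adjusted p = 0.000122).

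Ptgs2 encodes the inducible cyclooxygenase that makes prostaglandin precursors, and it had the third largest rise. Its values were 6.1, 91.6 and 75.2 units in 2T3 low and 6129, 5861 and 5725 units in MLO-Y4 low. The MLO-Y4 arrays were nearly equal, whereas 2 of the 3 arrays of 2T3 low were above their limit and replicate 1 was at the floor. The fold was 170-fold with all arrays (log2 7.41 ± 0.89, adjusted p = 0.00134), 76.2-fold without that array and 260-fold without 2T3 low replicate 2. It was the only call of 16 measured genes of prostaglandin and eicosanoid metabolism.

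Among the chemokines, which attract leukocytes, Ccl7 read 22.2, 6.1 and 6.1 units in 2T3 low and 1764, 1516 and 4877 units in MLO-Y4 low. Of the 2T3 arrays only replicate 1 was above its limit. The difference was 251-fold (log2 7.97 ± 0.65, adjusted p = 0.000132), and at least 187-fold without that array, when 2T3 low was undetected. Ccl2, the monocyte chemokine beside Ccl7 in the same family, read 10.1, 66.6 and 42.2 against 1529, 911 and 2170 units. It was 47.4-fold higher (log2 5.57 ± 0.80, adjusted p = 0.00383), or 29.6-fold without 2T3 low replicate 1. Ackr3, a receptor that scavenges the chemokine Cxcl12, read 33.9, 35 and 37.2 units in 2T3 low and 749, 343 and 678 units in MLO-Y4 low (15.8-fold, log2 3.98 ± 0.36, adjusted p = 0.000263). Cxcl5, a neutrophil chemokine, was higher by 2.71 (adjusted p = 0.0346), a call that was lost without any 1 of 8 of the 12 arrays. These 4 were the calls among the 26 measured genes of the chemokine list, none lower, where 2.87% of all 4605 genes were called higher and 1.06% lower. By limma at an unadjusted p under 0.05, 8 of the list were higher and 4 lower (Ccl19, Cxcl12, Ccl22 and Cx3cl1).

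Cytokines of the interleukin 6 family, which signal through gp130, were higher as well. Il11 read 50.3, 16.3 and 30.3 units in 2T3 low and 1721, 678 and 1187 units in MLO-Y4 low, 38.2-fold higher (log2 5.25 ± 0.49, adjusted p = 0.000264). Lif was higher by 4.68 (adjusted p = 0.0047), with 1 of the 3 arrays of 2T3 low above its limit, and 47.1-fold higher without replicate 1 of 2T3 low. Il6 was higher by 3.05 (adjusted p = 0.0384) and was not called with detected-spot scaling (adjusted p = 0.129) or without any 1 of 8 arrays. With Saa3, Hp and Lgals3bp, 6 of 25 measured acute-phase and inflammatory cytokine genes were higher and none lower, where 2.87% of all genes were higher and 1.06% lower. The median difference was 1.22 over the list against 0 over all spots (1.78 with equal medians and 0.84 with detected-spot scaling).

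Interferon-stimulated genes, the antiviral and GTPase genes that interferon switches on, gave 6 of 20 measured genes higher and none lower, with a list median of 1.18 (0.95 to 1.54 under the other scalings). The shares over all genes were 2.87% higher and 1.06% lower. Gbp2, a guanylate-binding protein, read 6.1, 8.3 and 6.1 units in 2T3 low and 162, 226 and 268 units in MLO-Y4 low. No 2T3 array was above its limit, and Gbp2 was at least 19.5-fold higher (adjusted p = 2.35e-05). Usp18, the protease that removes the ubiquitin-like Isg15 from proteins, was at the floor on the 3 arrays of 2T3 low and at 127, 138 and 76.5 units in MLO-Y4 low, at least 10.1-fold higher (adjusted p = 0.000132). Ifit3, an antiviral protein with tetratricopeptide repeats, was at the floor in 2T3 low and at 156, 64.6 and 41.3 units in MLO-Y4 low, at least 6.81-fold higher (adjusted p = 0.00171). Replicate 1 was the brightest MLO-Y4 array for Ifit3, and without it the bound was 4.56-fold.

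The other interferon-stimulated calls were Ifi204 (122, 292 and 271 against 1562, 1450 and 1572 units, log2 2.84 ± 0.46, adjusted p = 0.0083), Ifit1 (at least 10.4-fold, adjusted p = 0.0167, lost without any 1 of 5 arrays) and Irf7, a transcription factor of the interferon response (at least 6.78-fold, adjusted p = 0.0115). Isg15 was higher by 3.84 but did not pass (adjusted p = 0.0624). With the floor raised to the 50th percentile, 3 of the 6 were called. Outside the list, Gbp2b, a close paralog of Gbp2, read 15.5, 9.5 and 8.2 units against 715, 230.0 and 235 units (31.6-fold with 1 of 3 arrays of 2T3 low above its limit, log2 4.98 ± 0.71, adjusted p = 0.00361, or 20.6-fold without MLO-Y4 low replicate 1). Probe sequences were not used here, so signal shared between near-identical paralogs such as Gbp2 and Gbp2b could not be separated. Tapbp, the tapasin that loads peptides onto class I molecules, was the only call among 19 measured antigen presentation genes (log2 2.71, adjusted p = 0.0167), and it was lost without 2T3 low replicate 1, 2T3 low replicate 3 or MLO-Y4 low replicate 1.

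The promoters of these genes were searched for an interferon response element, written as GAAA, any 2 bases and GAAA again, on either strand, in the 300 bases from 250 before to 50 after the RefSeq start (build GRCm38.p6). The letters occurred in 3.44% of 32851 windows of all genes and in 4.71% of 3649 array genes that had a window. They were in 8 of 15 measured interferon-stimulated genes with a window, 3 of the 4 called ones among them (Gbp2, Ifit1 and Ifit3, not Irf7). Of 98 genes called higher at low density that had a window, 9 held the element (9.18%), and of 36 called lower none did. Further patterns were searched on both strands, an NF-kB type, GGGA and TTTCC with any 1 base between them, and an AP-1 type, TGANTCA. The NF-kB type was in 1 of the 98 higher genes (1.02%), against 0.685% of array genes with a window, and the AP-1 type in 14 (14.3%), against 8.61%. Over the windows of all genes they occurred in 0.411% and 7.81%. A match is a description of the letters and not a site shown to be used.

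The windows of 4 called genes are printed because each holds the element, in capitals, within the promoter of a gene at or near the floor in 2T3 low. They are Gbp2 at chr3:142620413-142620712 on the plus strand, Gbp2b at chr3:142594597-142594896 on the plus strand, Ifit3 at chr19:34583279-34583578 on the plus strand and Saa3 at chr7:46715627-46715926 on the minus strand, each read along its gene's strand.
Gbp2: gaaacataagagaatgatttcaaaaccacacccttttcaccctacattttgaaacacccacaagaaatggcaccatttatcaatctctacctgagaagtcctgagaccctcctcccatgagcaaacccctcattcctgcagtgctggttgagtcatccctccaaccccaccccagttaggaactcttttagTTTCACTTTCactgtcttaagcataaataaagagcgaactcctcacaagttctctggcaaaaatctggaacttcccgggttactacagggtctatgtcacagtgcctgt
Gbp2b: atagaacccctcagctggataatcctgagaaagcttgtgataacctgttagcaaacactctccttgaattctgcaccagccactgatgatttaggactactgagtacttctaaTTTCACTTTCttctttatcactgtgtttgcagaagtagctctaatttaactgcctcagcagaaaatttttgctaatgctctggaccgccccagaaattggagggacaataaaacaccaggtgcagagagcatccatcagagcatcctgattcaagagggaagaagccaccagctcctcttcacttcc
Ifit3: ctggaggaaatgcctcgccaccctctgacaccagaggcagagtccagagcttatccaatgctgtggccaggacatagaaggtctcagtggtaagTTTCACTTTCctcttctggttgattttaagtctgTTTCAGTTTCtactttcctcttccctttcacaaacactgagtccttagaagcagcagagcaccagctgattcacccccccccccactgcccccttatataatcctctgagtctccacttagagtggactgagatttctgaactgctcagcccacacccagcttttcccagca
Saa3: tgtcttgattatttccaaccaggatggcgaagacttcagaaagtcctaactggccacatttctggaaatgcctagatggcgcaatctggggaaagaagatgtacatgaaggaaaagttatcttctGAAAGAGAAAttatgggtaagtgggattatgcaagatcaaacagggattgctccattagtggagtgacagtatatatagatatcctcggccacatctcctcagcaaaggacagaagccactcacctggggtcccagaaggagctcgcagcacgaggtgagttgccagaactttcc
In Gbp2 the element lay 59 to 50 bases before the start, on the opposite strand. In Gbp2b it lay 137 to 128 bases before. Ifit3 held 2, the nearer from 122 to 113 bases before the start. Saa3 held 1 in the forward direction, from 125 to 116 bases before.

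A list of 53 measured genes covered the FGF, IGF, PDGF, EGF and VEGF families, ligands and receptors together, and the vascular peptide Adm. Of these 7 were called higher and none lower, 6 of them under all 3 scalings, against 2.87% of all genes higher and 1.06% lower. The list median of 0.39 fell to -0.02 with detected-spot scaling. Ereg, epiregulin, a ligand of the epidermal growth factor receptor, read 111, 43.6 and 64.6 units in 2T3 low and 3286, 3116 and 4366 units in MLO-Y4 low (52.4-fold, log2 5.71 ± 0.52, adjusted p = 0.000263). The receptor itself, Egfr, was at least 6.94-fold higher (adjusted p = 0.0107). Pgf, placental growth factor, read 6.6, 9.5 and 14.1 units against 668, 445 and 284 units (45.7-fold with 1 of 3 arrays of 2T3 low above its limit, log2 5.52 ± 0.69, adjusted p = 0.00173). Vegfa, the vascular endothelial growth factor, read 65.4, 183 and 137 units against 2532, 4226 and 1919 units (23.2-fold, log2 4.54 ± 0.55, adjusted p = 0.00134). In each of these genes the lowest MLO-Y4 array was above the highest 2T3 array. Pdgfa was higher by 3.00 (adjusted p = 0.0067) and Fgf7 by 2.76 (adjusted p = 0.0141, lost without any 1 of 3 arrays). Adm, adrenomedullin, was higher by 2.49 (adjusted p = 0.0291), but not under detected-spot scaling (adjusted p = 0.0537) and not without any 1 of 5 of the 6 low-density arrays.

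In the BMP and TGF-beta pathway 7 of 49 measured genes were called higher and none lower, against 2.87% and 1.06% of all genes. The list median of 0.07 became -0.19 with detected-spot scaling, and 4 of the list were called without 2T3 low replicate 3. Gdf5, a BMP-family ligand of joints and cartilage, read 10.1, 6.1 and 6.1 units in 2T3 low and 198, 96.1 and 157 units in MLO-Y4 low (20.0-fold, log2 4.32 ± 0.43, adjusted p = 0.000335). Only replicate 1 of 2T3 low was above its limit, and without it Gdf5 was at least 11.1-fold higher. Inhba, which encodes an activin subunit, read 7.8, 22.6 and 14.1 units against 224, 265 and 107 units (log2 3.77 ± 0.63, adjusted p = 0.00954). Of the receptors, Acvr1, a type I BMP receptor, was higher by 4.15 (adjusted p = 0.00939, and 28.5-fold without 2T3 low replicate 3 against 17.8-fold with it), and the co-receptors Eng (4.53, adjusted p = 0.00684) and Tgfbr3 (3.00, adjusted p = 0.0182, lost without any 1 of 4 arrays) were higher too. Grem1, gremlin, a secreted BMP antagonist, read 155, 99.2 and 90.0 units against 3989, 4756 and 3036 units, a difference of 5.11 ± 0.99 (adjusted p = 0.0178). The 2 groups of Grem1 values were far apart, yet its call was lost without any 1 of the 6 low-density arrays, with an adjusted p of up to 0.0701.

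Genes of growth arrest and of the p53 response gave 3 calls of 27 measured, all higher, where 2.87% of all genes were higher and 1.06% lower. Cdkn1a, the cyclin-dependent kinase inhibitor p21, read 73.2, 70.3 and 102 units in 2T3 low and 1613, 1417 and 1070 units in MLO-Y4 low (16.7-fold, log2 4.06 ± 0.43, adjusted p = 0.000527). Mdm2, the ubiquitin ligase that limits p53, read 144, 119 and 90.0 units against 837, 812 and 1110 units (log2 2.98 ± 0.39, adjusted p = 0.00245). Gas2, growth arrest specific 2, was higher by 4.52 (adjusted p = 0.000927). Of 56 measured cell cycle and DNA replication genes 1 was called, the histone chaperone Nasp, lower by 2.21 (adjusted p = 0.023) not called with equal medians (adjusted p = 0.103) or without any 1 of 4 of the low-density arrays.

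Of 45 measured antioxidant and metallothionein genes 6 were higher and none lower, where 2.87% of all genes were higher and 1.06% lower. Hmox1, haem oxygenase 1, read 215, 162 and 198 units in 2T3 low and 2989, 1857 and 3478 units in MLO-Y4 low (14.1-fold, log2 3.82 ± 0.36, adjusted p = 0.000264). Mt1, a metal-binding metallothionein, was bright in both lines, at 2532, 1637 and 2329 units against 18933, 14662 and 18933 units (8.17-fold, log2 3.03 ± 0.41, adjusted p = 0.00271). Gstt1, a glutathione transferase, was higher by 3.65 (adjusted p = 0.00271), Txnrd2, the mitochondrial thioredoxin reductase, by 2.85 (adjusted p = 0.0118), and Aldh3a1, an aldehyde dehydrogenase, at least 6.94-fold (adjusted p = 0.00319). Extracellular superoxide dismutase, Sod3, was higher by 2.94 (adjusted p = 0.014), but not with detected-spot scaling (adjusted p = 0.117) or without any 1 of 3 arrays. No heat shock or ER stress gene of 29 measured was called by limma, with 3 at an unadjusted p under 0.05.

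Of 30 measured immediate early and growth response genes 3 were called higher and 1 lower, against 2.87% and 1.06% of all genes. Egr3, a growth-response zinc finger factor, was at the floor on every 2T3 low array and at 125, 123.3 and 97.0 units in MLO-Y4 low, at least 10.4-fold higher (adjusted p = 0.00154). Fosl1, a Fos-family partner in AP-1, was bright in both, at 974, 729 and 1079 units against 3227, 3377 and 3553 units (log2 1.89 ± 0.29, adjusted p = 0.00545). Phlda1 was higher by 2.73 (adjusted p = 0.0148), a call lost without 2T3 low replicate 2. Mafk, a small Maf protein, was the lower call (-2.10, adjusted p = 0.0187) and was not called with equal medians (adjusted p = 0.291) or without any 1 of 3 of the low-density arrays.

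Matrix genes moved in both directions. Lama5, the laminin alpha 5 chain of basement membranes, read 6.1, 8.3 and 6.1 units in 2T3 low and 437, 177 and 226 units in MLO-Y4 low, at least 23.7-fold higher (adjusted p = 0.000288). The thrombospondins Thbs1 (3.38, adjusted p = 0.0118) and Thbs2 (3.92, adjusted p = 0.0291), Col5a3 (2.35, adjusted p = 0.0214) and, not under every scaling, Ecm1 (2.37, adjusted p = 0.033) were higher. The call was lost without 2T3 low replicate 3 or MLO-Y4 low replicate 1 for Thbs1, without any 1 of 5 low-density arrays for Thbs2 (adjusted p up to 0.113) without any 1 of 4 for Col5a3 and without any 1 of 7 arrays for Ecm1. Nid2, the basement membrane linker nidogen 2, was lower by 3.62 (adjusted p = 0.0381), but the call was lost without any 1 of 8 of the 12 arrays. In all 5 of 50 measured collagen and matrix genes were higher and 1 lower, and 1 was higher without MLO-Y4 low replicate 1. Among all genes 2.87% were higher and 1.06% lower in the main fit. Of 44 proteases and inhibitors 3 were higher: Adam23 (26.0-fold, adjusted p = 0.00182, and at least 29.8-fold without 2T3 low replicate 1, the only array of 2T3 low above its limit), Adam19 (2.80, adjusted p = 0.0368, lost without any 1 of 7 arrays) and the cathepsin inhibitor Cst3 (1.94, adjusted p = 0.0151, called with quantile normalization only). Itga5, the fibronectin receptor subunit, was higher by 3.15 (adjusted p = 0.0184), a call lost without any 1 of 5 arrays, in a list of 50 integrin, cadherin and junction genes with 1 higher and 2 lower calls.

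Ampd3 and Ms4a1, among the largest rises, belong to none of these groups. Ampd3, an AMP deaminase of purine metabolism, was at the floor on all 3 arrays of 2T3 low and at 904, 715 and 309 units in MLO-Y4 low, at least 53.3-fold higher (adjusted p = 0.000122). Ms4a1, known as the B cell antigen CD20, read 35.5, 6.1 and 14.1 units against 304, 581 and 511 units (31.0-fold, log2 4.95 ± 0.56, adjusted p = 0.000867), with a fold of 20.2 without 2T3 low replicate 2. Only replicate 1 of 2T3 low was above its limit for Ms4a1. Of the 15 largest rises 14, all but Grem1, kept their call when any 1 of the 12 arrays was left out.

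**Figure D2:**
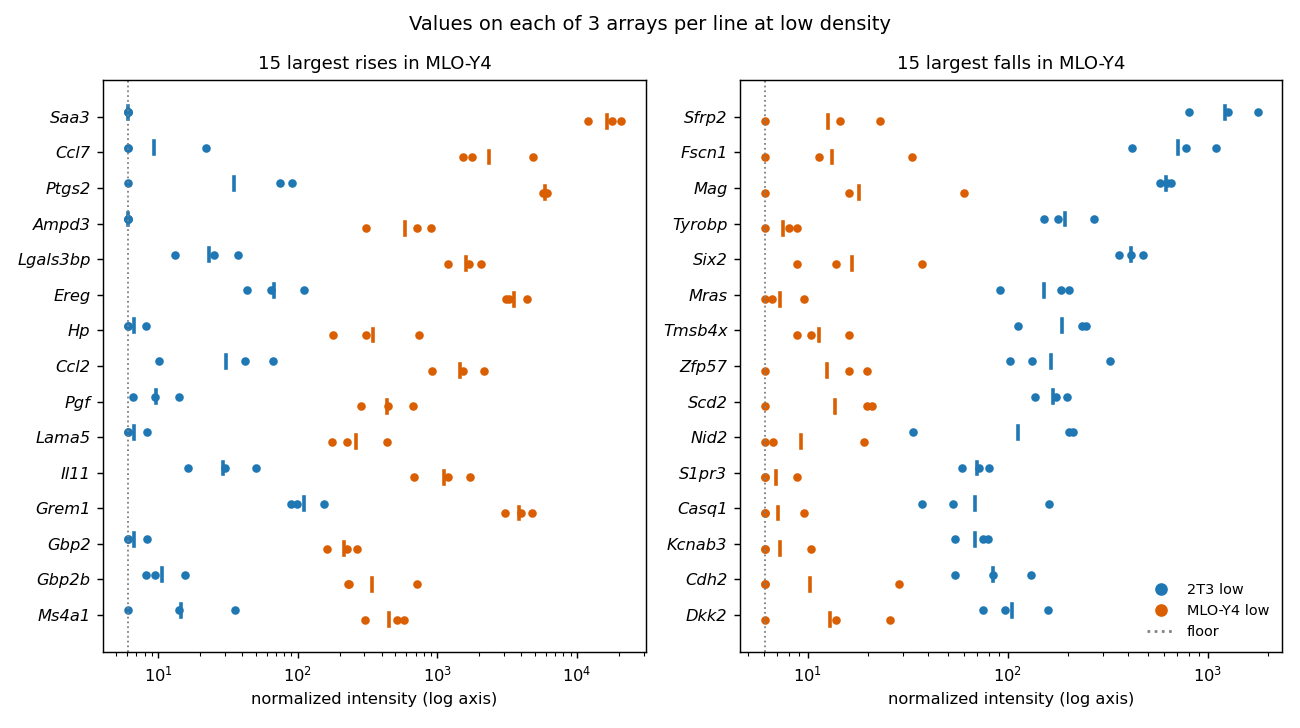
Normalized intensity on a log axis for the 15 largest rises (left) and 15 largest falls (right) that passed every naming criterion; each point is 1 array, each bar the geometric mean of 3, blue for 2T3 low and orange for MLO-Y4 low, and the dotted line is the floor of 6.08 units. The groups of each gene do not overlap, which the naming rule required; Saa3 spans from the floor to 20655 units and Sfrp2 from 1777 units to the floor.

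The largest fall was Sfrp2, a secreted frizzled-related protein that binds Wnt ligands. It read 1266, 801 and 1777 units in 2T3 low and 22.8, 14.5 and 6.1 units in MLO-Y4 low. Every 2T3 array was far above every MLO-Y4 array, of which only replicate 2 was above its limit. Sfrp2 was 96.5-fold lower in MLO-Y4 (log2 -6.59 ± 0.51, adjusted p = 0.000122), a fold that depends on the floor, and at least 52.8-fold lower without replicate 2, when MLO-Y4 low was undetected. The Wnt ligand Wnt10b, which promotes bone formation, was dimmer, at 37.8, 29.3 and 37.2 units against 6.1, 6.1 and 11.5 units. It was undetected in MLO-Y4 low and at least 1.91-fold lower (adjusted p = 0.00704). Dkk2, a secreted Wnt antagonist of the Dickkopf family, read 160.0, 75.4 and 96.2 against 6.1, 25.6 and 13.8 units (log2 -3.03 ± 0.60, adjusted p = 0.0189). It was not called without any 1 of 4 of the 6 low-density arrays. In all 3 of 39 measured Wnt pathway genes were lower and none higher, against 1.06% and 2.87% of all genes. The list median was -0.41 (-0.03 with equal medians).

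Actin regulators were split. Fscn1, fascin, which bundles actin into filopodia, read 779, 1099 and 416 units in 2T3 low and 33.3, 11.3 and 6.1 units in MLO-Y4 low, below the limit there on all 3 arrays. It was at least 39.2-fold lower (adjusted p = 0.00604), though not called without the 4 arrays numbered 1. Tmsb4x, thymosin beta 4, which holds actin monomers, read 113, 245 and 235 units against 10.4, 8.8 and 16.1 units (16.4-fold lower with 1 of 3 MLO-Y4 arrays above its limit, log2 -4.03 ± 0.38, adjusted p = 0.000264, and 24.99-fold without 2T3 low replicate 1). Evl, which promotes filament growth, was lower by 3.96 (adjusted p = 0.0291), but not with equal medians (adjusted p = 0.053) and not without any 1 of 5 arrays. In the other direction Dstn, the actin-severing protein destrin, read 774, 565 and 919 units against 3478, 2865 and 3899 units (4.59-fold higher, log2 2.20 ± 0.36, adjusted p = 0.00792, not called without the 4 arrays numbered 1), and Marcksl1 was at least 4.95-fold higher (adjusted p = 0.0494, lost without any 1 of 10 arrays). The list of 42 measured genes thus held 2 higher and 3 lower calls, where 2.87% of all genes were higher and 1.06% lower. Its median of 0.03 was 0.45 with equal medians and -0.33 with detected-spot scaling.

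Acta2, the smooth muscle actin of contractile cells, was one of the brightest spots in 2T3 low, at 22746, 34095 and 34095 units, and read 2946, 2496 and 2946 units in MLO-Y4 low. The 3 arrays of each line were close to each other and far from the other line (10.7-fold lower, log2 -3.42 ± 0.31, adjusted p = 0.000263). With equal medians the difference was -2.35 and did not pass (adjusted p = 0.0735). Among 13 measured muscle and contractile markers it was the only call, and the list summed to 27290.4 to 40222 units in 2T3 low and 5999.7 to 8604 units in MLO-Y4 low. Most of each 2T3 sum was Acta2 itself, so the sums do not describe the list as a whole. Of the 13 differences 6 were positive, with a list median of -0.17. Tagln, another smooth muscle gene, differed by -0.59 (adjusted p = 0.499) and Actg2 of the same list by 0.22 (adjusted p = 0.934).

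Single regulators of cell identity were among the calls. Six2, a homeobox factor, read 475, 412 and 359.9 units in 2T3 low and 37.2, 8.8 and 13.8 units in MLO-Y4 low (log2 -4.64 ± 0.50, adjusted p = 0.000568). Hoxc10, of the posterior Hox group, was the reverse, undetected in 2T3 low at 6.1, 6.1 and 21.0 units and at 158, 187 and 318 units in MLO-Y4 low, at least 19.2-fold higher (adjusted p = 0.00334, and at least 15.6-fold to 26.5-fold with 1 low-density array left out). Among 63 measured homeobox genes 2 were higher and 2 lower, with a list median of 0.02. Of all 4605 genes 2.87% were called higher and 1.06% lower. The other 2 homeobox calls, Tgif1 (1.94) and Dlx2 (-1.96), did not pass under every scaling, nor without any 1 of 8 and of 5 arrays. Zfp57, a zinc finger protein that maintains imprints, was lower by 3.71 (adjusted p = 0.00961). Mef2a, a MADS-box factor, was higher by 3.03 (adjusted p = 0.00731).

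The remaining large falls were of mixed function. Mras, a Ras-related GTPase, read 203, 91.6 and 184 units against 6.1, 6.6 and 9.5 units, at least 8.34-fold lower (adjusted p = 0.000264). Kcnab3, a potassium channel subunit (at least 3.80-fold, adjusted p = 0.00185), and S1pr3, a receptor for sphingosine 1-phosphate (at least 3.87-fold, adjusted p = 0.00266), were undetected in MLO-Y4 low. Mag, myelin-associated glycoprotein, was lower by 5.09 (adjusted p = 0.0161), a call lost without any 1 of 4 of the low-density arrays and with a fold of 18.9 without MLO-Y4 low replicate 1 and 61.4 without MLO-Y4 low replicate 2. Scd2, a stearoyl-CoA desaturase, was lower by 3.62 (adjusted p = 0.0241) whereas its relative Scd1 was higher by 1.70 (adjusted p = 0.0185). The calls were lost without any 1 of 6 and of 4 low-density arrays. Cdh2, N-cadherin of cell junctions (at least 4.66-fold lower, adjusted p = 0.0371), and Casq1, the calcium store protein calsequestrin (at least 3.78-fold lower, adjusted p = 0.0161), were lost without 8 and 2 of the single arrays. Of the 15 largest falls 8 kept their call in every fit that left out 1 of the 12 arrays. Without all 4 arrays numbered 1, the 15 largest rises were all still called and 9 of the 15 falls were. Fitted on the 6 low-density arrays only, all 15 rises and 9 of the 15 falls were called as well.

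**Figure D3:**
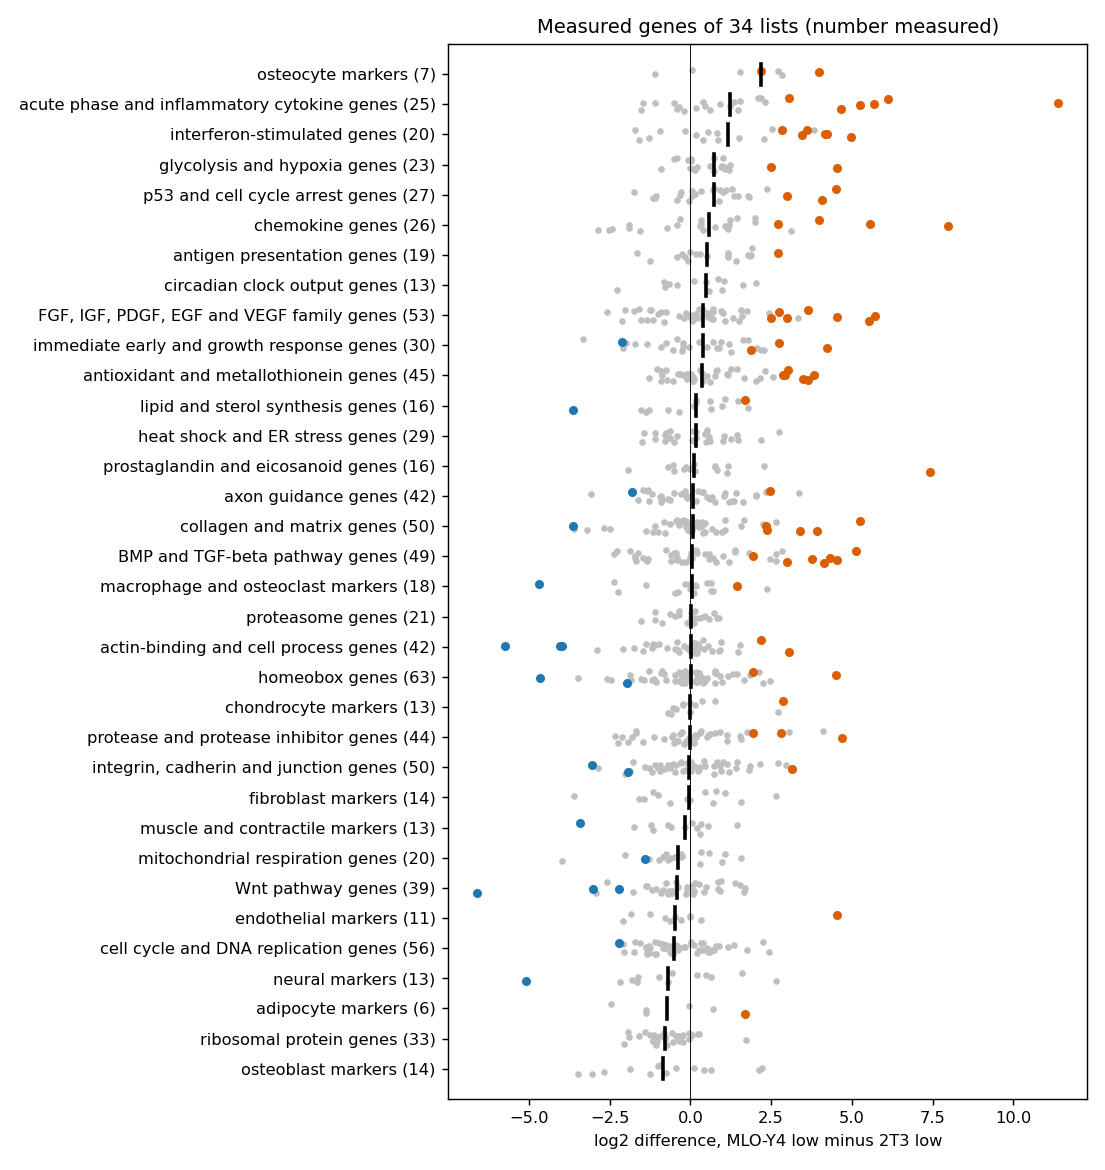
Log2 difference, MLO-Y4 low minus 2T3 low, of each measured gene of 34 gene lists, ordered by list median (black bar), with the number of measured genes in brackets. Orange points were called higher and blue points lower in MLO-Y4 at low density, and grey points were not called; the highest median is that of the osteocyte markers (2.20) and the lowest that of the osteoblast markers (-0.85).

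Markers listed for the cell types in the labels moved in mixed ways. The lists were chosen with earlier results of these data known, so they cannot check the labels. Of 15 listed osteocyte markers 7 were measured, and Dmp1, Mepe, Sost, Fgf23 and Gja1 were not among them. Of 7 measured osteocyte markers 2 were called higher in MLO-Y4 (Ackr3 and Dstn, described above) and none lower, with a list median of 2.20, the difference of Dstn itself. The differences of 6 were positive, and Mef2c went the other way without a call (-1.08, adjusted p = 0.632). Capg differed by 1.55 (adjusted p = 0.149). Pdpn, podoplanin, the surface protein of young osteocytes, read 255, 214 and 117 units in 2T3 low and 2170.0, 1833 and 576 units in MLO-Y4 low. The groups did not overlap, but the difference of 2.83 (95% interval 1.07 to 4.59) did not pass over all spots (adjusted p = 0.0918). Cd44, the hyaluronan receptor, differed by 2.71 (95% interval 0.76 to 4.66, adjusted p = 0.143), and its groups overlapped, with 161.6 units on the lowest MLO-Y4 array and 181.1 on the highest 2T3 array. Phex, the phosphate-regulating endopeptidase of mature osteocytes, was above the limit on none of the 6 arrays.

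Of 14 measured osteoblast markers none was called by limma in either direction (3 lower and 0 higher at an unadjusted p under 0.05), and the list median was -0.85 (-0.20 with equal medians). Col1a2, a chain of bone's main collagen, read 1054, 5312 and 1562 units in 2T3 low and 359.9, 536 and 179.8 units in MLO-Y4 low (-2.66, 95% interval -4.44 to -0.87, adjusted p = 0.114). Msx2, an osteoblast homeobox factor, read 644, 431 and 643 units against 37.2, 96.1 and 35.9 units (-3.48, adjusted p = 0.0875). In both genes the lines did not overlap although neither difference passed the threshold. The same held for the lower markers Pth1r (-0.95), Dlx5 (-1.87) and Bglap, described next. Dlx3 lay apart in the other direction, at 497, 169 and 165 units in 2T3 low and 842, 1764 and 764 units in MLO-Y4 low (2.12, adjusted p = 0.455).
Osteocalcin, Bglap, the product of mature osteoblasts whose promoter drives T antigen in MLO-Y4, read 367, 278 and 290.2 units in 2T3 low and 6.1, 191 and 45.2 units in MLO-Y4 low (-3.05, 95% interval -6.17 to 0.08, adjusted p = 0.34). The 3 MLO-Y4 arrays differed more from each other than the 2T3 arrays did. Alkaline phosphatase, Alpl, differed by 2.22 with overlapping groups (adjusted p = 0.325), and bone sialoprotein, Ibsp, by -0.99 (adjusted p = 0.678). Summed over the list, osteoblast markers came to 12842 to 16810.1 units on the 2T3 arrays and 6746 to 10643 units on the MLO-Y4 arrays. The largest part of each of these sums was Sparc, whose groups overlapped, at 12436, 5861 and 8088 units against 8526, 6543 and 4314 units (-0.43). Osteocyte markers came to 1666 to 1852 units on the 2T3 arrays and 6343 to 8360 units on the MLO-Y4 arrays. Dstn was the largest part of each of these sums, at 774, 565 and 919 units against 3478, 2865 and 3899 units.

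**Figure D4:**
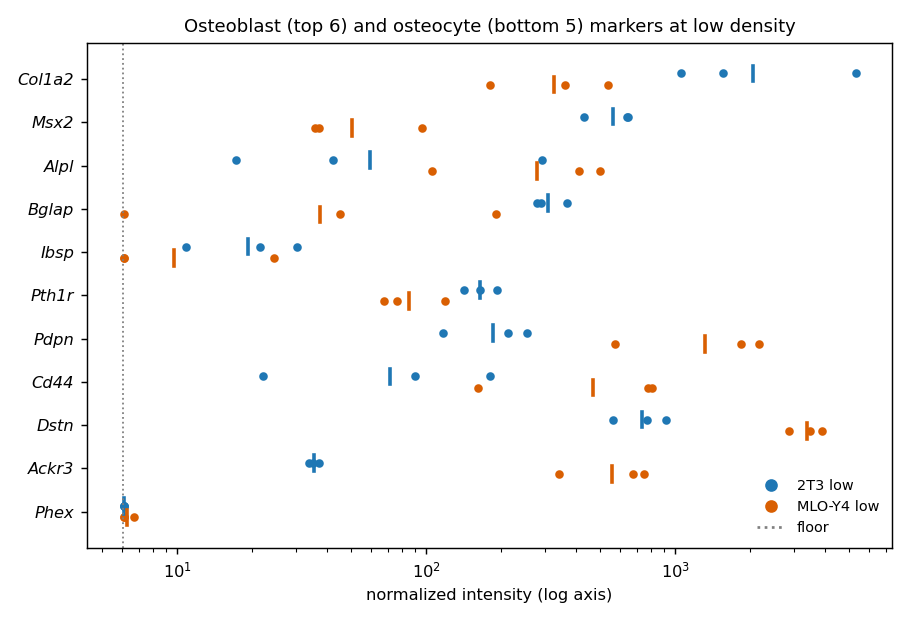
Normalized intensity on a log axis of 6 osteoblast markers (top) and 5 osteocyte markers (bottom) on each of 3 arrays of 2T3 low (blue) and MLO-Y4 low (orange), with bars at the geometric means and the floor dotted. Ackr3 and Dstn were called. Pdpn, Msx2, Col1a2, Pth1r and Bglap were apart without passing the threshold, and Phex was at or near the floor in both lines. Other measured markers, among them Mef2c, Capg, Dlx3 and Dlx5, are not drawn.

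Markers of other cell types were measured beside these. Of 18 macrophage and osteoclast markers 1 was lower and 1 higher, 3 were above the limit on none of the 6 arrays, and the sum was 715 to 1092 units in 2T3 low and 537 to 607 units in MLO-Y4 low. Tyrobp, an adaptor of myeloid receptors, read 269, 177 and 152 units in 2T3 low and 6.1, 8.8 and 8.0 units in MLO-Y4 low, at least 10.7-fold lower (adjusted p = 0.0129, and 0.0522 without MLO-Y4 low replicate 1). The receptor Csf1r was higher by 1.44 (adjusted p = 0.0405), near the floor, with quantile normalization only, and lost without any 1 of 8 arrays. Endothelial markers had 1 call of 11 (Eng), chondrocyte markers 1 of 13 (Sox5, higher, adjusted p = 0.0167, lost without any 1 of 3 low-density arrays), adipocyte markers 1 of 6 (Scd1), neural markers 1 of 13 (Mag) and fibroblast markers none of 14 by limma, with 3 at an unadjusted p under 0.05. Whether other cells in the cultures had a part in any result was not tested. In bulk RNA, fewer cells expressing a gene and less of its RNA per cell cannot be told apart.

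Genes of general cell function mostly did not pass. No ribosomal protein gene of 33 measured was called by limma (6 lower at an unadjusted p under 0.05), and their median of -0.77 became 0.15 with equal medians, so no direction can be given. None of 21 proteasome genes and none of 13 circadian output genes was called by limma, with 0 and 3 at an unadjusted p under 0.05. Of 20 mitochondrial respiration genes 1 was called, Atp5a1 (-1.40, adjusted p = 0.0385, with quantile normalization only and lost without any 1 of 9 arrays). In glycolysis and hypoxia the only calls of 23 genes were Vegfa and Adm, already given. The 3 spots of Gapdh, a glycolytic enzyme often used as a reference, differed by 0.89 to 1.38 and none was called in the main fit. The lines did not overlap at its brightest spot, which was called by limma with equal medians (2.15, adjusted p = 0.0418). Axon guidance genes had 1 higher and 1 lower call of 42, Sema4b and Sema3a, neither called under all 3 scalings, nor without any 1 of 8 and of 4 arrays.

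The same contrast in the denser groups, MLO-Y4 high minus 2T3 C0, used different arrays, which were normalized together with these and shared the estimate of spread. Same-numbered MLO-Y4 arrays of the low and high groups deviated from their group means together, at r of 0.625, 0.475 and 0.505, so the values of the 2 contrasts are not independent. There 169 spots (3.36%) were called, 116 higher (2.31%) and 53 lower (1.05%). Of the low-density calls 101 were also called in the dense groups, all in the same direction, 85 higher and 16 lower, which is 51.0% of the low-density calls and 59.8% of the dense calls. Of all 198 low-density calls 196 had the same sign in the dense groups. Across the 198 spots, which are not independent replicates and were selected on the low-density values, the log2 differences correlated at a Pearson r of 0.93 and a Spearman rho of 0.90. All 15 of the largest rises were also called there, among them Saa3 (11.15), Ccl7 (8.66) and Ptgs2 (5.99), and 7 of the 15 largest falls, led by Sfrp2 (-8.31).

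For 97 spots the call was made at low density only, and none of them was called when the difference between the densities was tested. That test called 0 of 5030 spots (0%) by limma, with 145 at an unadjusted p under 0.05 where 251.5 would fall by chance. With the array number as a block for MLO-Y4, an analysis chosen after the data were seen, it also called 0, with 212 at an unadjusted p under 0.05. Egr3 (4.23 at low density, 1.25 in the dense groups), Acvr1 (4.15 and 1.83), Tyrobp (-4.68 and -1.81) and Mef2a (3.03 and 0.13) are examples called at low density only. The difference between densities was nearest to a call for Kcnab3 (-3.24 and -0.35, adjusted p = 1), Casq1 (-3.27 and 0.74) and, in the other direction, Irf8, an interferon regulatory factor (0.56 and -1.87), and Dbp, a clock output factor (-2.28 and -5.74). With the floor at the 50th percentile 2 spots were called, S1pr3 (-1.53, adjusted p = 0.00657) and the transcription factor Etv1 (0.23, adjusted p = 0.0469). All of their dense-group values were at the raised floor, so these are not measured differences between the densities. The other low-density call of opposite sign besides Casq1 was the Fc receptor Fcgr3 (-1.07 and 0.15), named here after its values were seen and not called without any 1 of 9 arrays.

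**Figure D5:**
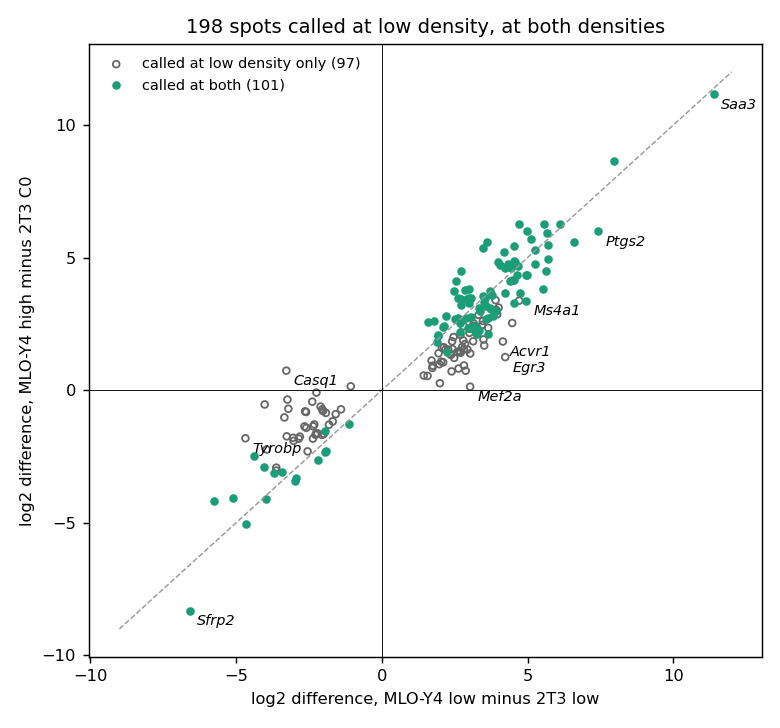
Log2 line difference at low density (horizontal) against that in the denser groups (vertical) for the 198 spots called at low density, with the dashed line of equal differences. The 101 filled points were called at both densities and the 97 open points at low density only; 196 of the 198 lie in the same-sign quadrants.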

How the data were processed

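Total RNA of the 12 samples had been measured on one-colour spotted arrays. The deposited values are linear spot intensities after background subtraction, whole numbers read as intensity from the values themselves, and further steps by the authors are not stated in the labels. Symbols came from the platform annotation, updated through Entrez identifiers for 4624 spots. It gave 1 symbol to 4633 spots and several to 5, while 392 were unnamed, 17 of them called. The arrays are taken as replicates because the labels number them, but the labels do not say that they came from separate cultures, so the p-values reflect the spread among arrays of a group, which could be technical alone.

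Intensities were quantile normalized over the 12 arrays with limma 3.58.1 (R 4.3.3), floored at the 25th percentile and put on the log2 scale. Quantile normalization was preferred to equal medians because background readings set the median of some arrays. Means of 4 groups were fitted with lmFit and eBayes (8 residual degrees of freedom), two-sided, with Benjamini-Hochberg adjustment over 5030 spots and a threshold of 0.05. Errors are standard errors of the log2 difference. An "at least" fold sets the brighter group's mean against the dimmer group's mean, taking on each array of the latter the higher of its lowest signal above the limit and the spot's own. A gene with several spots is represented by the brightest. Named genes were the 15 largest rises and 15 largest falls of 99 rises and 22 falls that were called under 3 scalings, had no overlap between arrays and were detected on the 3 arrays of the brighter line, then up to 4 genes of smallest p in each of 34 lists (920 genes measured of 1416), the smallest p values of the difference between densities and a fixed set of markers; calls of each list were also named. The members and lists were chosen with earlier results of these data known, and their counts are set beside those of all genes. The fit was also tested on simulated data, and no result of that test is used here. Array numbers were checked for pairing: same-numbered arrays of the low groups deviated together at r of 0.0028, -0.111 and 0.131, so they were not paired. In the dense groups these were 0.526, 0.311 and 0.368, a pairing seen in the data only, and there the block called 235 spots against 169. Same-numbered MLO-Y4 arrays of both densities also deviated together (0.625, 0.475 and 0.505), those of 2T3 less (0.0388, 0.0645 and 0.152). The main fit took the 12 arrays as independent, so these correlated deviations entered the spread behind the low-density p-values. Image software and probe sequences were not used here.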

Additional observations from a re-analysis of the deposited data

How the results depend on the processing

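Alternatives were equal medians, detected-spot scaling, a floor at the 50th percentile, a filter on dim spots, a replicate block, only the 6 low-density arrays, no arrays numbered 1, and each array left out. The 198 low-density calls (144 higher, 54 lower) were 100 (81 higher, 19 lower) when only the 6 low-density arrays were fitted, 91 of them shared. There were 158 without the arrays numbered 1, of which 85 were shared. Lower calls were 26 with equal medians and 88 with detected-spot scaling. Leaving out 1 array gave 115 to 221 calls, 93 to 166 higher and 22 to 60 lower, with lower calls of 34, 34, 22, 32, 24 and 23 without 2T3 low replicates 1 to 3 and MLO-Y4 low replicates 1 to 3, and 93 higher without 2T3 low replicate 3 or MLO-Y4 low replicate 1. The 169 dense calls ranged from 103 to 186. The difference between densities gave 0 calls under each alternative except 2 with the floor at the 50th percentile, whose dense values were all at that floor. It gave 0 as well with a replicate block for the MLO-Y4 arrays only, an alternative chosen after the data were seen. With the replicate block there were 254 low-density calls, 186 of them shared. No called gene named here reversed its direction under these alternatives. Of 5030 spots 558 were above the limit on none of the 6 arrays, and no difference could be measured there.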
